A study of Mus musculus with 4 samples.

Results

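Foxp3 cells are described here by the company they kept in their clonotype: 55 cells from mixed clonotypes, in which few cells carried Foxp3 transcripts, are set against 694 cells from Treg-dominated clonotypes, in which most did. A Foxp3 cell is a cell with at least 1 UMI (a unique molecular identifier, counted once per captured transcript molecule) of Foxp3. A clonotype is the set of cells of 1 mouse with the same TRBV gene, TRBJ gene and CDR3 nucleotide sequence of the T cell receptor β chain, and clonotypes of 3 or more cells were used. Clonotypes with a Foxp3 UMI in at least 1 cell but in under 25% of their cells are called mixed, and those with a Foxp3 UMI in 60% or more of their cells are called Treg-dominated. The 749 Foxp3 cells of the 2 classes were drawn from 2065 Foxp3 cells among 12325 filtered cells. Of the remaining Foxp3 cells, 1300 were in clonotypes of fewer than 3 cells and 16 in clonotypes between the thresholds. The members were chosen by their Foxp3 counts, so the level of Foxp3 is given as a description and is not tested.

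All cells came from B6.H2g7 mice (B6.NOD-(D17Mit21-D17Mit10)/LtJ, aged 6 to 8 weeks), which carry the major histocompatibility region of NOD mice on a C57BL/6 background. Splenic CD4 T cells of 2 donors were column-purified, 5000000 cells were put into 2 NOD.Rag1null hosts, which have no T or B cells of their own, and live CD4+ TCRβ+ cells were sorted from the host spleens on day 14. Each host (mouse 1 and mouse 2 below) was profiled once with 10x 5′ chemistry, for transcripts and for receptor chains, and there was no untreated group. Both classes of Foxp3 cells therefore share strain, transfer, host and day, and differ in their clonotype. Whether donor cells were pooled before transfer is not given, so p-values hold for these 2 hosts only. They rest on how far the differences between classes varied from host to host, with that spread shared over classes and partly over genes. The libraries held 9996 and 9733 barcodes, of which 5993 and 6332 passed the filters, at medians of 5596 and 6219.5 UMIs per cell. The 2 libraries shared 166 barcodes, of which 58 belonged to kept cells in both. A barcode found in the other library, kept there or not, was carried by 1 mixed and 10 Treg-dominated Foxp3 cells. The part of these barcodes in the results was not tested.

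Foxp3 is the transcription factor that defines regulatory T cells (Treg), which restrain other T cells, and it keeps genes such as Il2ra and Ctla4 high and many cytokine genes low. Treg formed in the thymus pass on Foxp3 as they divide, while conventional CD4 T cells can gain it in the periphery, and human conventional T cells are known to express FOXP3 for a short time after activation. A T cell and its progeny share the rearranged β chain, so the receptor marks which cells descend from a common cell or carry the same rearrangement. Foxp3 (ENSMUSG00000039521) lies on the plus strand of chromosome X at 7573644 to 7595245, and Ikzf2 (ENSMUSG00000025997), which encodes the Treg factor Helios, lies on the minus strand of chromosome 1 at 69531214 to 69687245 (GRCm38, GENCODE annotation).

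The CDR3 sequences below define the largest clonotype of each kind in each mouse, and they are shown because every class below rests on such a sequence. They run 5′ to 3′, and capitals mark the junction, the bases outside the end stretches that at least 25% of CDR3 sequences with the same V or J gene share. TRB genes lie on chromosome 6, Trbv31 at 41557691 to 41558452, Trbv29 at 41271394 to 41271881 and Trbv5 at 41062332 to 41062803.
Mixed, mouse 1, TRBV31 and TRBJ1-4: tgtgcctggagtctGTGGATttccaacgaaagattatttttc
Mixed, mouse 1, the next in size, TRBV31 and TRBJ1-4: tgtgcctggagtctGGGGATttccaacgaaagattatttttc
Mixed, mouse 2, TRBV29 and TRBJ2-3: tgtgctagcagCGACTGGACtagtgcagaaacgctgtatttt
Treg-dominated, mouse 1, TRBV5 and TRBJ1-1: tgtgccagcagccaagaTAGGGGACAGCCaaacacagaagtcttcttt
Treg-dominated, mouse 2, TRBV31 and TRBJ1-1: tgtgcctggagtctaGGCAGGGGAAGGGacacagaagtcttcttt

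The largest mixed clonotypes held 222 cells in mouse 1, 2 of them Foxp3 cells, and 366 cells in mouse 2, 4 of them Foxp3 cells. The largest Treg-dominated clonotypes held 24 cells in mouse 1, 20 of them Foxp3 cells, and 17 cells in mouse 2, 13 of them Foxp3 cells. The next mixed clonotype of mouse 1 held 216 cells, 2 of them Foxp3 cells, and its CDR3 differed from that of the largest by T16G, counted from the 5′ end of the CDR3. These mixed clonotypes of mouse 1 had different leading α chains, both of TRAV21-DV12, with TRAJ56 in 216 cells of the largest and TRAJ48 in 213 cells of the next.

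Mixed clonotypes were few and large, and Treg-dominated clonotypes were many and small. There were 18 mixed clonotypes in mouse 1 and 22 in mouse 2, with 5 to 366 cells and a median of 18.5 cells, against 64 and 85 Treg-dominated clonotypes with 3 to 24 cells and a median of 4. At least 10 cells were found in 29 of 40 mixed clonotypes and in 12 of 149 Treg-dominated ones. The rule sets part of this, since a clonotype needs 5 cells for 1 Foxp3 cell to stay under 25%. A mixed clonotype must also hold a Foxp3 cell, which at a low share favours large clonotypes. The 439 clonotypes without a Foxp3 UMI, which belong to neither kind, had 3 to 103 cells and a median of 4. How much of the size difference the rule sets was not tested. Among the mixed clonotypes 29 held 1 Foxp3 cell and none held over 4. The values nearest to the thresholds were 20% in mixed clonotypes, 25% to 50% in the 14 clonotypes in between, and 60% in Treg-dominated clonotypes, of which 105 were at 100%.

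**Figure D1:**
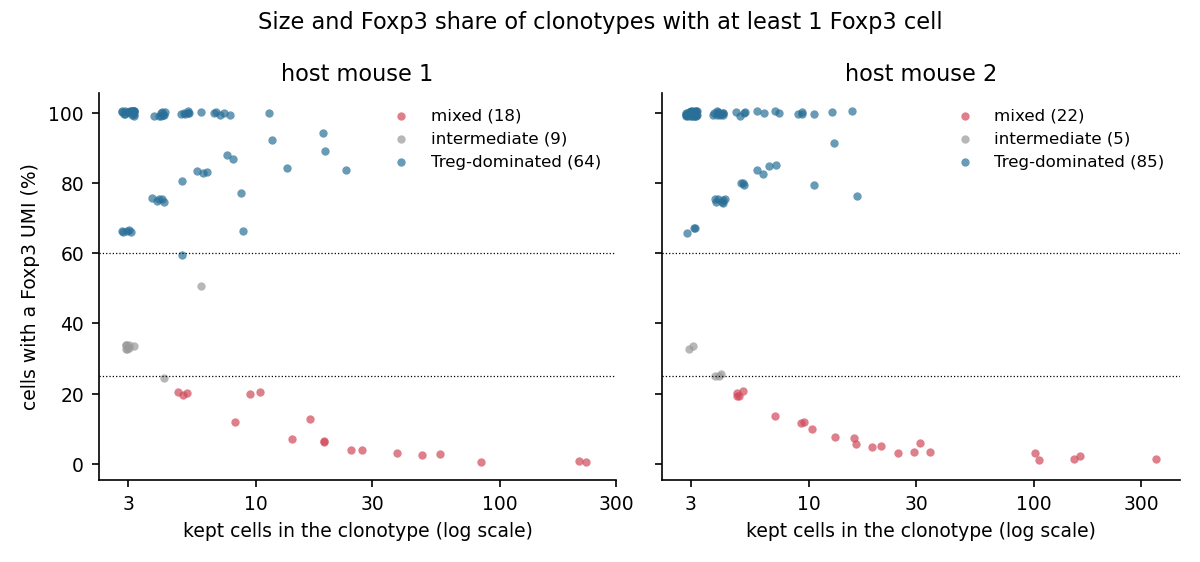
Cells per clonotype (log scale) against the percent of its cells with a Foxp3 UMI, for clonotypes with at least 1 Foxp3 cell in mouse 1 (left) and mouse 2 (right), with lines at 25% and 60% and a small random shift of each point. The mixed clonotypes reach 366 cells at low Foxp3 shares, while the Treg-dominated clonotypes stay at 24 cells or fewer and 105 of 149 sit at 100%.

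Over all cells of mixed clonotypes, the Foxp3 share was 2.89% in mouse 1 (95% exact binomial interval 1.86 to 4.27) and 2.71% in mouse 2 (1.85 to 3.82). Because a mixed clonotype must hold a Foxp3 cell, the share over every clonotype under 25%, those without a Foxp3 UMI included, was lower, at 1.02% of 2353 cells (0.655 to 1.51) and 1.25% of 2472 cells (0.854 to 1.78). Among these clonotypes, those of 3 or 4 cells held 0 Foxp3 cells of 515 and 399 cells, as the threshold requires. Those of 5 to 9 cells had 0.985% and 2.18%, those of 10 to 29 cells had 2.19% in each mouse, and those of 30 or more had 0.969% and 1.15%, with intervals that overlap those of the 10 to 29 cell group. A level of stray Foxp3 RNA could not be measured: barcodes with myeloid transcripts and no TRB chain, which should lack Foxp3, numbered 4 and 3, and 0 of them had a Foxp3 UMI, with exact 95% upper limits of 60.2% and 70.8%. The part of stray RNA in the single Foxp3 UMIs below was not tested.

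The β chain of mixed clonotypes was spread over 15 V genes, against 18 in Treg-dominated ones. TRBV26, the segment encoding Vβ3, was carried by 5 of 40 mixed clonotypes, 12.5% (4.19 to 26.8), and by 31 of 149 Treg-dominated clonotypes, 20.8% (14.6 to 28.2), with overlapping intervals. The CDR3 had a median of 42 bases in both kinds. The same rearrangement was found in the other mouse for 1 mixed clonotype and for 6 Treg-dominated clonotypes.

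Foxp3 cells of mixed clonotypes carried few Foxp3 molecules, and they are called Foxp3 cells and not Treg throughout. Of the 55 cells, 49 had 1 Foxp3 UMI, 3 had 2, and the remaining cells had 3, 6 and 8. At least 2 UMIs were found in 12.5% of mixed Foxp3 cells in mouse 1 (2.66 to 32.4) and 9.68% in mouse 2 (2.04 to 25.8), against 85.2% (80.9 to 88.9) and 89.2% (85.5 to 92.1) of Treg-dominated Foxp3 cells, which reached 21 UMIs in a cell. Foxp3 stood at 135 and 171 UMIs per 1000000 UMIs (CPM) over the mixed Foxp3 cells and at 538 and 593 CPM over the Treg-dominated ones. Median UMIs per cell were 5931.5 and 6472 in mixed Foxp3 cells and 6889 and 6866 in Treg-dominated ones. The part of depth in the Foxp3 counts was not tested.

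The α chain sequence, which the rule did not use beyond a limit of 2 TRA chains per cell, showed which Foxp3 cells shared a TRA CDR3 as well with their clonotype. In mixed clonotypes, 23 of 24 Foxp3 cells with an α chain in mouse 1 and 28 of 30 in mouse 2 shared a TRA CDR3 with another cell of the clonotype, 95.8% (78.9 to 99.9) and 93.3% (77.9 to 99.2). The shares in Treg-dominated Foxp3 cells were 99.7% (98.3 to 99.99) and 99.4% (98.02 to 99.9). Across both mice, 50 of the 55 mixed Foxp3 cells carried the leading α chain of the cells without a Foxp3 UMI in their own clonotype. The TRA of 3 mixed Foxp3 cells was found in no other cell of their clonotype.

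These 3 cells were exactly those with 3, 6 and 8 Foxp3 UMIs, while the 51 cells that shared a TRA had 1 or 2. They are described here because of those values. Their clonotypes held 16 cells in mouse 1 and 13 and 33 cells in mouse 2. Below, the β chain CDR3 is followed by the leading α chain CDR3 of the clonotype and by that of the Foxp3 cell, since the α chains are where the cells part. TRA genes lie on chromosome 14.
Mouse 1, TRBV23 and TRBJ2-2, β chain: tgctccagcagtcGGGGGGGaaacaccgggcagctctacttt
Leading α chain, TRAV4-4-DV10 and TRAJ57, in 15 cells: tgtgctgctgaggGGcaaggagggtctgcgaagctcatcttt
α chain of the cell with 3 Foxp3 UMIs, TRAV7-5 and TRAJ48: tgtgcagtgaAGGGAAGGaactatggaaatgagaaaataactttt
Mouse 2, TRBV16 and TRBJ2-7, β chain: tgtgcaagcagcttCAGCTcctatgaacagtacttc
Leading α chain, TRAV10D and TRAJ15, in 31 cells: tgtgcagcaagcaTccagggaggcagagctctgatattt
α chain of the cell with 8 Foxp3 UMIs, TRAV7N-5 and TRAJ12: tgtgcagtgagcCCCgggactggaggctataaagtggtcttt
Mouse 2, TRBV16 and TRBJ1-2, β chain: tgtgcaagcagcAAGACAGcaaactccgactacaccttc
Leading α chain, TRAV9-4 and TRAJ21, in 12 cells: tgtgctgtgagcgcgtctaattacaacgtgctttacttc
α chain of the cell with 6 Foxp3 UMIs, TRAV4-2 and TRAJ31: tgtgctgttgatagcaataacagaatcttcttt

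Over the 3 cells with an α chain of their own, Ikzf2 stood at 2145 CPM, with UMIs in 3 of 3 cells, and Ccl5, a chemokine of effector T cells, at 1346 CPM. Over the 51 mixed Foxp3 cells that shared an α chain, Ikzf2 stood at 254 CPM, with UMIs in 28 cells, and Ccl5 at 24464 CPM. Gzmk, a granzyme, had 0 UMIs in the 3 cells and 1120 CPM in the 51. With 3 cells chosen after their values were seen, no test was made.

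**Figure D2:**
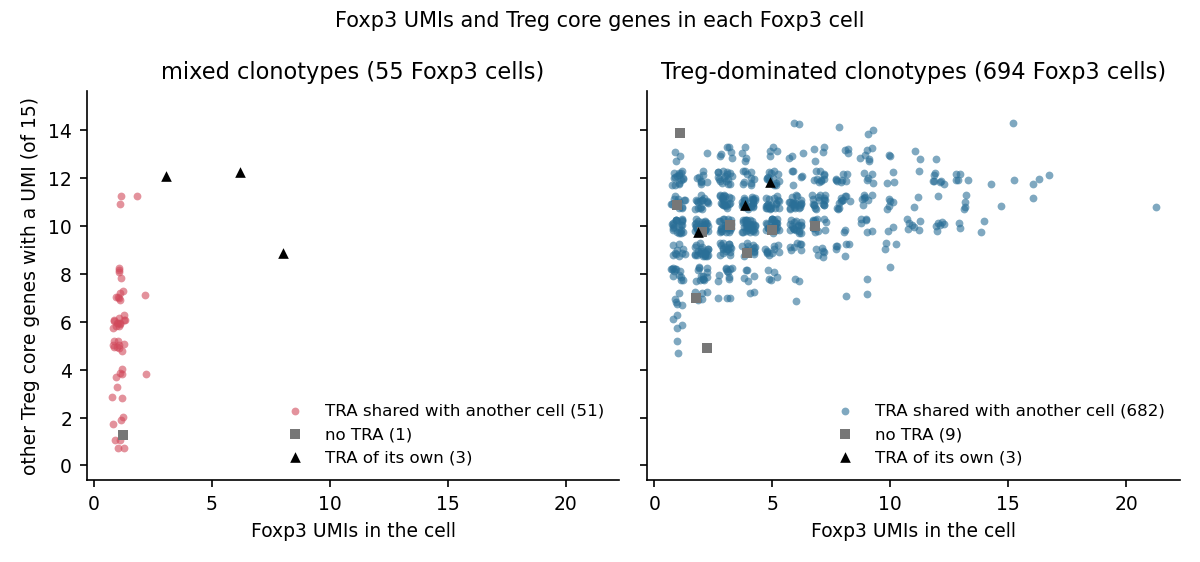
Foxp3 UMIs against the number of the other 15 Treg core genes with a UMI, 1 point per Foxp3 cell with a small random shift, for mixed clonotypes (left, 55 cells) and Treg-dominated clonotypes (right, 694 cells); triangles are cells whose α chain no other cell of the clonotype had, and squares are cells with no α chain. The mixed Foxp3 cells stand at 1 or 2 Foxp3 UMIs apart from the 3 triangles at 3, 6 and 8.

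Foxp3 cells of mixed clonotypes differed from Foxp3 cells of Treg-dominated clonotypes in 565 of 9907 tested genes, 5.7%, with 295 higher (2.98%) and 270 lower (2.73%). The UMIs of each class were summed per mouse, and the sums were compared with edgeR's quasi-likelihood test at an adjusted p under 0.05. Of these genes, 559 changed the same way in both mice, and the median log2 fold change over all genes was -0.03. Most Treg core genes were lower in the mixed Foxp3 cells and most cytotoxic genes tested were higher. The Treg effector and interferon response genes that were called were all lower. Several other lists held calls in both directions, as given list by list below. Sums of 24 and 31 cells stand behind the mixed values and sums of 325 and 369 cells behind the Treg-dominated ones. With every cell thinned to 3000 UMIs, which left 8 and 16 Foxp3 cells in mixed clonotypes and 246 and 299 in Treg-dominated ones, 228 genes were called, 71 higher and 157 lower. Depth and cell number both changed in that setting.

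Of the Treg core genes, 12 of 15 tested members besides Foxp3 were lower in mixed Foxp3 cells and 0 were higher, against a background of 2.73% lower over all genes. Their median log2 fold change was -2.45, or -2.42 with Lrrc32, which had 0 UMIs in mixed Foxp3 cells, at its bound. Among transcription factors, Ikzf2 had 299.8 and 391 CPM in mixed Foxp3 cells of mouse 1 and mouse 2, against 1318 and 1177 CPM in Treg-dominated ones. The log2 fold change was -1.86 (SE 0.16, adjusted p = 1.18e-07). Ikzf4, which encodes Eos, a partner of Foxp3, had 4.84 and 3.88 CPM against 65.8 and 80.7 CPM. Its 2 UMIs in mixed Foxp3 cells give a ratio of 0.0585 with a counting interval of 0.00707 to 0.213 (adjusted p = 0.000216).

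Several receptor genes of the core list were lower, while the receptor genes Il2rb, Nrp1 and Gpr83 were not called. Ctla4, the inhibitory receptor for CD80 and CD86, had 140 and 120 CPM in mixed Foxp3 cells and 615 and 728 CPM in Treg-dominated ones (log2 fold change -2.41, SE 0.19, adjusted p = 5.14e-08). Il2ra, the high-affinity chain of the interleukin 2 receptor, had 4.84 and 15.5 CPM against 135 and 171 CPM, a log2 fold change of -3.86 (SE 0.66). The tumour necrosis factor receptor family members moved together: Tnfrsf4 (OX40) by -3.37, Tnfrsf18 (GITR) by -2.54 and Tnfrsf9 (4-1BB) by -2.45, each called. Itgae, the αE integrin chain that binds E-cadherin, had 33.9 and 23.3 CPM against 204 and 241 CPM (-3.02, SE 0.30). Lrrc32, which encodes GARP, the surface anchor of latent TGF-β, had 0 UMIs in mixed Foxp3 cells and 28.8 and 39.7 CPM in Treg-dominated ones, which makes it at least 5.34-fold lower over both mice.

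Capg, an actin-capping protein, fell by 2.30, Izumo1r (folate receptor 4) by 1.76 and Tigit, an inhibitory receptor, by 0.96 on the log2 scale. Il2rb, the shared β chain of the receptors for interleukins 2 and 15, had 571 and 566 CPM in mixed Foxp3 cells and 682 and 791 CPM in Treg-dominated ones (adjusted p = 0.284). Nrp1 had 67.7 and 96.9 CPM against 61.2 and 49.8 CPM (adjusted p = 0.624).

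**Figure D3:**
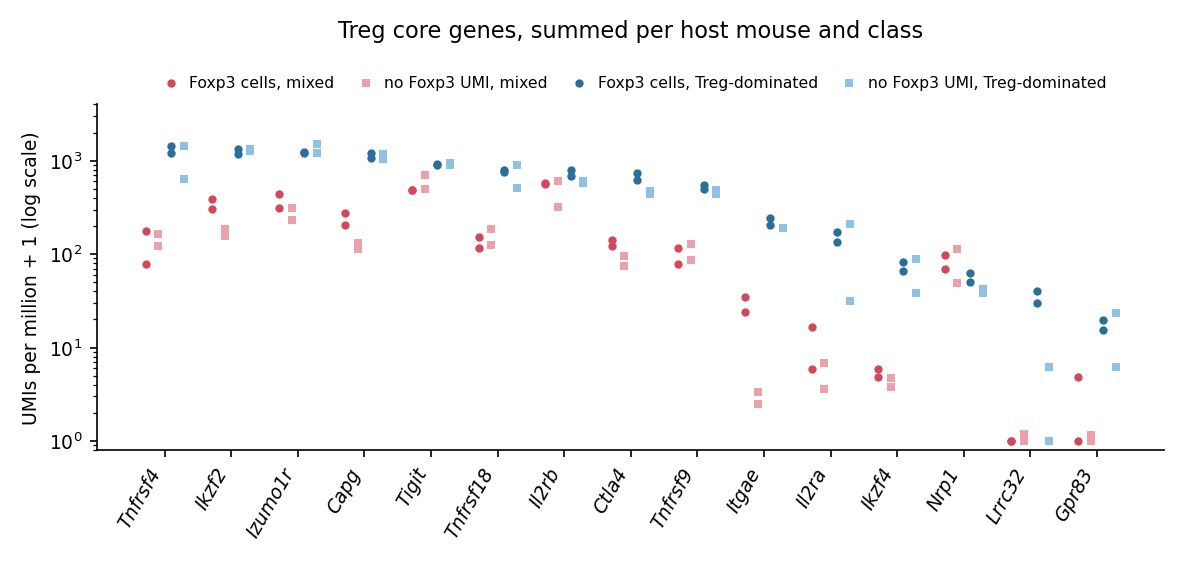
CPM plus 1 (log scale) of the 15 Treg core genes besides Foxp3, 1 point per host mouse, in 4 classes: Foxp3 cells and cells without a Foxp3 UMI of mixed clonotypes, and the same of Treg-dominated clonotypes. Ikzf2 lies between 156 and 391 CPM in mixed clonotypes and between 1177 and 1346 CPM in Treg-dominated ones.

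Per cell, a median of 5 and 6 of the 15 core genes had a UMI in mixed Foxp3 cells, against 10 and 10 in Treg-dominated Foxp3 cells. After each cell was thinned to 3000 UMIs, with 3 and 1 shallower mixed cells and 14 and 17 shallower Treg-dominated cells left out, the medians were 4 and 4 against 9 and 9. Ikzf2 UMIs were found in 62.5% and 51.6% of mixed Foxp3 cells and in 100% and 99.2% of Treg-dominated Foxp3 cells. After thinning the shares were 33.3% and 36.7% against 93.9% and 95.2%.

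The same contrast was made between cells with exactly 1 Foxp3 UMI, a comparison added after the values were seen. There were 21 and 28 such mixed cells and 48 and 40 such Treg-dominated cells. Their median depths were 5556 and 6182 UMIs in mixed cells and 5114 and 5230 UMIs in Treg-dominated ones. Ikzf2 stood at 146 and 352 CPM in the mixed cells against 1873 and 1553 CPM in the Treg-dominated ones, with UMIs in 13 of 21 and 13 of 28 cells against 48 of 48 and 40 of 40. Of 13 core genes tested at this size, 10 were lower and 0 higher, with a median of -2.70, against 137 lower of 5019 genes tested. Among the 51 mixed Foxp3 cells that shared an α chain with their clonotype, 12 of 15 core genes were lower, with a median of -2.62. Over all genes of that fit, 269 of 9834 were lower. Among cells with at least 2 Foxp3 UMIs, 6 mixed cells were left, 3 of them those with an α chain of their own, and Ikzf2 (-0.75, adjusted p = 0.117) and Ccl5 (0.17, adjusted p = 0.795) were no longer called.

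Of the genes of activated effector Treg, 8 of 16 tested were lower in mixed Foxp3 cells and 0 higher, with a median of -1.16. Over all genes 2.73% were lower. Penk, the enkephalin precursor, had 4.84 and 11.6 CPM in mixed Foxp3 cells and 160 and 444 CPM in Treg-dominated ones (-5.14, SE 0.99, adjusted p = 0.0022). Ebi3, a subunit of interleukins 27 and 35, had 1 UMI in mixed Foxp3 cells, a ratio of 0.0495 (0.00125 to 0.278). Icos, a costimulatory receptor, had 193 and 194 CPM against 525 and 635 CPM (-1.61, SE 0.18). Il10 (-2.57), Ccr8 (-2.83), Klrg1 (-2.17), Tgfb1 (-0.91) and Maf (-0.77) were the other members called.

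Of the cytotoxic genes, 9 of 12 tested were higher in mixed Foxp3 cells and 1 was lower, with a median of 3.10, against the background of 2.98% higher over all genes. Gzmk had 1219 and 934 CPM in mixed Foxp3 cells and 13.0 and 29.9 CPM in Treg-dominated ones. The log2 fold change was 5.58 (SE 0.29, adjusted p = 1.68e-10). Eomes, a T-box factor of cytotoxic and memory T cells, had 218 and 221 CPM against 4.57 and 7.16 CPM (5.17, SE 0.33). Klrd1, the CD94 chain of natural killer receptors, had 48.4 and 73.6 CPM against 1.05 and 0.976 CPM (5.80, SE 0.59). Klrk1 had 9.67 and 23.25 CPM against 0 and 0.33 CPM, which is 1 UMI. Klrk1, Fasl (3.72), Cx3cr1 (3.44), Prf1 (2.77), Nkg7 (1.34) and Ctsw (0.99) were the other members that rose, and Klrg1 was the member that fell. At 3000 UMIs per cell, 5 of 10 tested members were higher, against 71 of 7699 genes over all.

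Of the Th1 genes, 7 of 16 were higher and 3 lower, with a median of 1.00, against 2.98% higher and 2.73% lower over all genes. Ccl5 had 18652 and 26949 CPM in mixed Foxp3 cells and 1334 and 1687 CPM in Treg-dominated ones (3.88, SE 0.12, adjusted p = 1.7e-14), the smallest p of all genes tested. Ifng, the cytokine of Th1 cells, had 242 and 264 CPM against 17.6 and 21.1 CPM (3.67, SE 0.21, adjusted p = 6.11e-10). Hopx and Cxcr3, which stand in the same list, were lower, by 1.18 and 0.74 on the log2 scale. The helper cytokines and ligands had 7 of 11 genes higher and 2 lower, with a median of 2.90. Cd40lg, which signals to B cells and dendritic cells, had 160 and 65.9 CPM against 4.92 and 10.1 CPM (3.80, SE 0.44). Il10 and Ltb were the members that were lower.

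Of the Tfh genes, 7 of 14 were higher and 1, Icos, was lower, with a median of 0.95. Over all genes 2.98% were higher and 2.73% lower. Tox2, a factor of follicular helper cells, had 72.5 and 143 CPM in mixed Foxp3 cells and 5.98 and 9.11 CPM in Treg-dominated ones (3.83, SE 0.44). Il21 (4.14), Tcf7 (2.94), Pdcd1 (1.66), Sh2d1a (1.16), Tox (0.86) and Il4 were the other members called. The 9 UMIs of Il4 in mixed Foxp3 cells all came from mouse 1, and in mouse 2 the ratio ran the other way. Il4 was also the 1 member called of 3 tested in the Th2 list, and 0 of 2 were called in the Th17 list. Those 2 genes, Tmem176a and Tmem176b, had 10 and 18 UMIs in mixed Foxp3 cells, all of them in mouse 1.

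Genes of naive and resting T cells were divided, with 3 of 11 higher and 1 lower. For each list of this paragraph, the shares over all genes were 2.98% higher and 2.73% lower. Klf2, which controls the exit of T cells from lymphoid tissue, had 599.7 and 426 CPM in mixed Foxp3 cells and 122 and 143 CPM in Treg-dominated ones (1.92, SE 0.27), and Satb1 fell by 2.17. Among T cell receptor signal genes, 1 of 15 was higher and 3 lower. Nr4a1, an early gene of receptor signalling, had 43.5 and 27.1 CPM against 162 and 136 CPM (-2.13, SE 0.40), while Nr4a2 of the same family was higher by 1.97. Inhibitory receptors and exhaustion genes had 4 of 13 higher, Eomes, Nr4a2, Pdcd1 and Tox, and 3 lower, Ctla4, Cd101 and Tigit. Homing and chemokine receptors had 3 of 15 higher and 4 lower. Itga4, the α4 integrin chain, had 899 and 911 CPM against 227 and 194 CPM (2.07, SE 0.17).

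The interferon response genes had 4 of 10 lower in mixed Foxp3 cells, 0 higher and a median of -1.19, against 2.73% lower over all genes. Ifi27l2a had 551 and 783 CPM in mixed Foxp3 cells and 2258 and 2772 CPM in Treg-dominated ones (-1.94, SE 0.14). Isg15 (-1.47) and Bst2 (-1.16) were also lower. Of 20 proliferation genes 1, Ube2c, was called, against 5.7% called over all genes. Its value rests on 2 cells: 105 of its 112 UMIs in mouse 1 and 34 of 36 in mouse 2 came from 1 mixed Foxp3 cell each. Of 9 genes of dissociation stress, 0 were higher and 2, Jund and Junb, were lower.

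**Figure D4:**
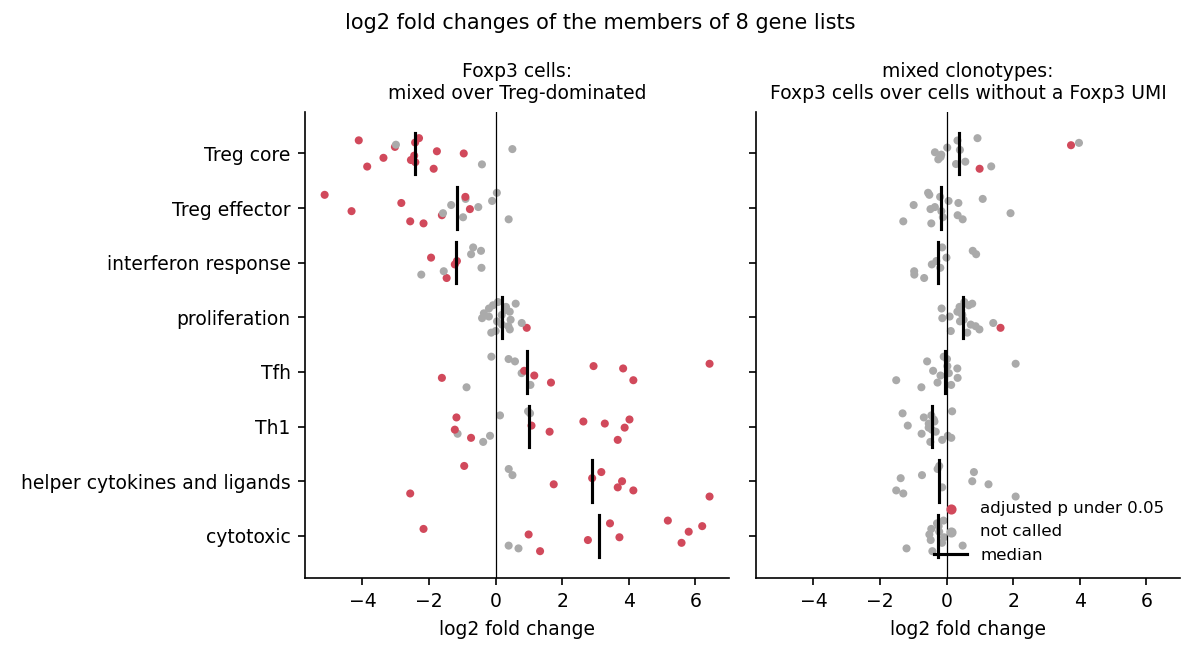
log2 fold changes of the tested members of 8 gene lists, for mixed over Treg-dominated Foxp3 cells (left) and, within mixed clonotypes, for Foxp3 cells over cells without a Foxp3 UMI (right); red points had an adjusted p under 0.05, black lines are list medians, and genes with 0 UMIs on 1 side are drawn at their bound. The medians run from -2.42 for the Treg core list to 3.10 for the cytotoxic list on the left.

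By size, the 10 largest increases included Prr5l, an mTORC2-binding protein, and Sept4, a septin, which had 38.7 and 46.5 CPM and 29.02 and 31.0 CPM in mixed Foxp3 cells. Both had 0 UMIs in Treg-dominated Foxp3 cells and were at least 84.9-fold and at least 59.4-fold higher over both mice. Spp1 (osteopontin) had 29.02 and 159 CPM against 1.05 and 0.651 CPM (6.70, SE 0.52), and in mouse 2 26 of its 41 UMIs came from 1 mixed Foxp3 cell. Gas7 was higher by 6.07 (SE 0.74) and Klrd1 is given above. Ncald had 2 UMIs in Treg-dominated Foxp3 cells, with a ratio of 127 (30.9 to 1123). Prss2, Adgrg1, Fam71b and Glp1r had 1 UMI there, with lower limits of the ratio between 20.4 and 84.02, and 35 of the 39 Prss2 UMIs in mixed Foxp3 cells came from mouse 1.

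The 10 largest decreases were led by genes not seen in mixed Foxp3 cells. Besides Lrrc32, Gm3739, Rapsn, Nckap5 and Gm4951 had 0 UMIs there and were at least 5.16-fold, 3.95-fold, 3.82-fold and 3.74-fold lower. Rln3, the relaxin 3 gene, had 3 UMIs in mixed Foxp3 cells, all from 1 cell with an α chain of its own, against 343 and 217 CPM in Treg-dominated ones (ratio 0.0233, interval 0.00479 to 0.0681). Ncmap and Cep112 had 1 and 3 UMIs in mixed Foxp3 cells, with ratios of 0.027 (0.000681 to 0.151) and 0.0483 (0.00994 to 0.142).

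Transcripts of other cell types were checked in the same sums. Of 6 B cell markers, 2 were tested and Ighm, the immunoglobulin μ chain, was lower in mixed Foxp3 cells (-2.85, SE 0.24). The 6 markers summed to 53.2 and 101 CPM in mixed Foxp3 cells and to 519 and 618 CPM in Treg-dominated ones, while Ms4a1, which encodes the B cell protein CD20, was at 0 in both. Of 9 dendritic cell markers, 4 were tested and Cd74, the invariant chain of MHC class II, was lower (-3.02, SE 0.26). They summed to 106 and 93.01 CPM against 817 and 822 CPM, with Flt3, Xcr1, Siglech and Itgax at 0 in both classes. Myeloid markers summed to 58.03 and 19.4 CPM against 26.4 and 35.8 CPM, and NK cell markers to 14.5 and 7.75 CPM against 3.52 and 3.90 CPM, with Klre1 called higher (14.51 and 7.75 CPM against 0 and 0.33 CPM) and Ncr1 at 0 in both. Erythroid markers summed to 19.3 and 15.5 CPM against 4.57 and 5.53 CPM. The 2 CD8 T cell markers summed to 9.67 and 7.75 CPM against 13.01 and 17.9 CPM, with Cd8a at 0 in both classes. Gamma-delta T cell markers summed to 29.02 CPM (6 UMIs) and 0 CPM against 0.352 and 0 CPM. The part of these transcripts in the results was not tested.

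Within mixed clonotypes, few genes were called between Foxp3 cells and cells without a Foxp3 UMI: 7 of 9907 genes were called, 0.0707%, with 4 higher (0.0404%) and 3 lower (0.0303%), and without the mouse as a block 2 were called. The contrast compares 24 and 31 Foxp3 cells with 806 and 1113 cells of the same clonotypes. The sums were not matched by clonotype. The largest mixed clonotype held 222 of 830 cells but 2 of 24 Foxp3 cells in mouse 1. In mouse 2 it held 366 of 1144 cells but 4 of 31 Foxp3 cells. With 1 cell per clonotype and class, where 3486 genes were tested, 0 were called. The part of clonotype makeup in the calls was not tested. Of the 15 core genes, Ikzf2 and Itgae were higher and 0 were lower, with a median of 0.33, or 0.36 with genes at 0 on 1 side left at their bound. Ikzf2 had 299.8 and 391 CPM in Foxp3 cells and 184 and 156 CPM in cells without a Foxp3 UMI (0.99, SE 0.17, adjusted p = 0.0171). Itgae had 7 and 6 UMIs, from 3 cells in each mouse, or 33.9 and 23.3 CPM, against 1.51 and 2.35 CPM (3.74, SE 0.57, adjusted p = 0.00671). Capg had 276 and 205 CPM against 130 and 112 CPM (adjusted p = 0.0845), and Ctla4 140 and 120 CPM against 73.2 and 95.01 CPM (adjusted p = 0.741).

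The 2 core calls did not stand when the 3 cells with an α chain of their own and other cells that shared none were left out. Ikzf2 was then at a log2 fold change of 0.53 (adjusted p = 0.816) and Itgae at 2.73 (adjusted p = 0.554), with 3 genes called in all. Without the cells with 2 or more Foxp3 UMIs, Ikzf2 was at 0.57 and Itgae at 1.85, again with 3 genes called. Both of these settings were added after the values were seen. In the other direction, Gcg, the glucagon precursor gene, had 1 UMI in the Foxp3 cells against 115 and 126 CPM in the cells without a Foxp3 UMI, a ratio of 0.0177 with an interval of 0.000448 to 0.0989 (adjusted p = 0.000109). Nrgn, a calmodulin-binding protein, had 24.2 and 34.9 CPM against 129 and 225 CPM (-2.63, SE 0.30), and Ly6a (Sca-1) had 866 and 535 CPM against 1216 and 1053 CPM (-0.77, SE 0.14). Ube2c and Gm26917 were the remaining increases, with Ube2c resting on the 2 cells named above.

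None of the Treg effector, Th1, cytotoxic, Tfh, helper cytokine or interferon genes passed the test in this contrast, where 606 of all genes had an unadjusted p under 0.05 and DESeq2 called 10 genes. Ccl5 had 18652 and 26949 CPM in Foxp3 cells of mixed clonotypes and 27874 and 35518 CPM in the cells without a Foxp3 UMI (-0.54, SE 0.11, adjusted p = 0.0696), and DESeq2 called it lower. Gzmk had 1219 and 934 CPM against 1327 and 951 CPM. Per cell, a median of 5 and 6 core genes had a UMI in the Foxp3 cells and 4 and 5 in the cells without one.

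Within Treg-dominated clonotypes, no core gene was called between Foxp3 cells and cells without a Foxp3 UMI. The contrast compares 325 and 369 Foxp3 cells with 33 and 24 cells without a Foxp3 UMI. The Foxp3 cells came from 149 clonotypes and the cells without a Foxp3 UMI from 44 of them, so clonotypes were not matched. In it 16 of 9907 genes were called, 0.162%, with 14 higher (0.141%) and 2 lower (0.0202%). Without the mouse as a block 0 were called, and with 1 cell per clonotype and class 0 were called. None of 15 core genes was called, with a median of 0.26 against 0.07 over all genes. Ikzf2 had 1318 and 1177 CPM in Foxp3 cells and 1346 and 1269 CPM in cells without a Foxp3 UMI, and a UMI in 100% and 99.2% of the Foxp3 cells against 96.97% and 91.7%. Ctla4 had 615 and 728 CPM against 443 and 468 CPM. A median of 10 and 10 core genes had a UMI in Foxp3 cells and 9 and 9 in cells without one, above the 5 and 6 of mixed Foxp3 cells.

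Of the 14 genes that rose in Foxp3 cells of Treg-dominated clonotypes, 5 stand in the proliferation list of 20 genes: Hmgb2, Mki67, Cdk1, Ube2c and Ccna2. The others were Cdc20, Plk1 and Cenpf, known from mitosis, Cks2, a partner of cyclin-dependent kinases, Smc2, a condensin subunit, Lmnb1, a protein of the nuclear lamina, and the tubulin genes Tuba1b, Tuba1c and Tubb4b. Ccna2 (cyclin A2), Cdc20 and Plk1 had 0 UMIs in the cells without a Foxp3 UMI and were at least 8.59-fold, 6.8-fold and 4.5-fold higher in Foxp3 cells. Cenpf had 1 UMI there, with a ratio of 19.9 (3.55 to 789). Depth moved with this contrast: the Foxp3 cells had medians of 6889 and 6866 UMIs, against 4902 and 5275 UMIs in cells without a Foxp3 UMI. At 3000 UMIs per cell the fitted changes of Ccna2, Cdc20, Plk1 and Cenpf were below 0. Ube2c was then called lower (-1.34, SE 0.26, edgeR adjusted p = 0.000626), and over all genes 6 were called higher and 21 lower. Thinning moved cells between the classes too, leaving 246 and 299 Foxp3 cells and 93 and 75 cells without a Foxp3 UMI, so depth and class makeup cannot be told apart in it. Ccl5 (-0.70, SE 0.11) and Tcf7 (-2.41, SE 0.45) were the genes that fell, and at 3000 UMIs per cell Ccl5 stood at 0.20.

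The difference between the contrasts of Foxp3 cells with cells without a Foxp3 UMI, mixed minus Treg-dominated, was tested as an interaction. By edgeR 0 genes (0%) were called, with 578 at an unadjusted p under 0.05, and by DESeq2 3 genes were called, Ikzf2, Itgae and Gpnmb, all higher. With 24 and 31 cells on 1 side and 33 and 24 on the other, the test was made on small sums.

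Levels were also taken over all cells of single clonotypes, with and without a Foxp3 UMI. In mixed clonotypes 1919 of 1974 cells had no Foxp3 UMI, against 57 of 751 in Treg-dominated ones. These levels therefore do not repeat the comparison of Foxp3 cells. Over all cells of a clonotype, Ikzf2 had a median of 181 CPM in the 40 mixed clonotypes, with a range of 35.0 to 918, against a median of 1197 CPM in the 149 Treg-dominated clonotypes, with a range of 260 to 5623. Ccl5 had a median of 24418 CPM, from 116 to 59210, in mixed clonotypes and 1080 CPM, from 0 to 13475, in Treg-dominated ones. The ranges of the 2 kinds overlapped for both genes. The 14 clonotypes between the thresholds had medians of 339 CPM for Ikzf2 and 879 CPM for Ccl5, and 9 of their 16 Foxp3 cells had at least 2 Foxp3 UMIs.

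**Figure D5:**
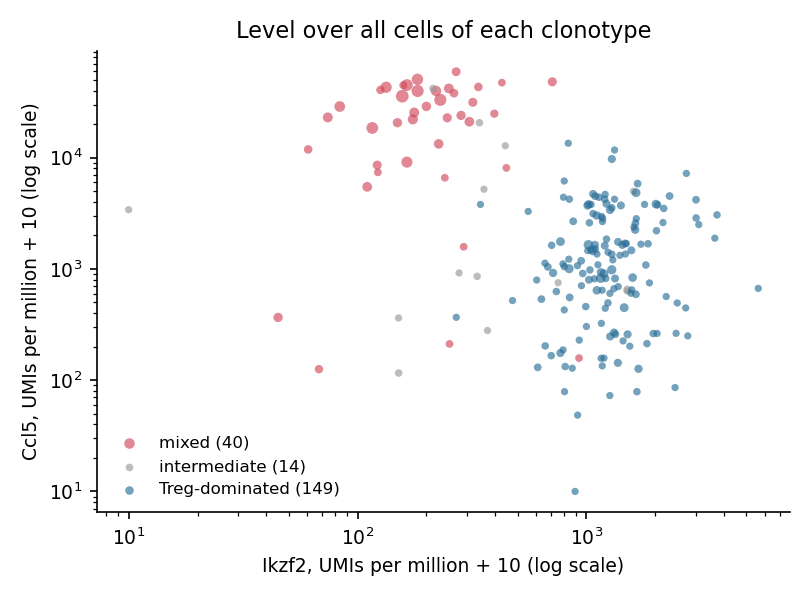
Ikzf2 against Ccl5 in CPM plus 10 (both axes on log scales) over all cells of each clonotype with a Foxp3 cell, both mice together, with larger points for larger clonotypes. Mixed clonotypes (40) have a median of 181 CPM of Ikzf2 and 24418 CPM of Ccl5, and Treg-dominated clonotypes (149) a median of 1197 CPM and 1080 CPM.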

How the data were processed

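Gene expression and T cell receptor libraries of sorted CD4 T cells from 2 hosts were used. Per the submitters' processing notes, Cell Ranger 7.0.1 was used, and mm10 and GRCm38 are the builds named. The deposited matrices hold counts of UMIs per gene and cell barcode, and the deposited contig tables hold UMI counts per receptor contig. Cells were kept with at least 500 genes, at most 10% mitochondrial UMIs, exactly 1 TRB chain and at most 2 TRA chains.

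For each host and class the counts of all cells were added, giving 8 sums, which were tested with edgeR 4.0.16 (quasi-likelihood test, TMM scaling, low genes removed by filterByExpr, the host as a block, 3 residual and 16.5 prior degrees of freedom) with Benjamini-Hochberg adjustment over all 9907 genes and a threshold of 0.05. Foxp3 and receptor segments were left out of the tests. The mouse is the pairing, since classes come from the same animals, and deviations correlated at 0.114 to 0.407 between classes. DESeq2 1.42.0 was an alternative. CPM are counts per 1000000 counts of a sum. Shares have exact Clopper-Pearson 95% intervals, and these and the floor of 3 counts over both mice, used for bounds, cover counting error only. On simulated sums of mixed over Treg-dominated Foxp3 cells with 9547 genes, 48 of 100 genes changed by a log2 value of 1 and 82 of 100 changed by 2 were recovered, with 9 calls among 9347 unchanged genes. The changed genes were drawn from the more abundant genes only, every gene had the same spread, and the mice did not differ. Recovery and wrong calls in the real sums, which lack these features, were not measured. Scrublet in scanpy 1.11.5 called 0 barcodes as doublets, so it did not work, and the 8% with the highest score were left out as an alternative.

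The classes, the 24 gene lists and the comparisons were chosen with earlier results of these data known. Named genes are the 10 largest called changes each way that had 1 direction in the 2 hosts and reached 20 CPM in a class, all Treg core genes, the 2 members of each T cell list with the smallest p, the 4 largest changes each way of the other contrasts, and called list members. Genes described in the cells with an α chain of their own were chosen after their values were seen. Some genes of the lists are not reported here.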

Additional observations from a re-analysis of the deposited data

How the results depend on the processing

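The contrast of mixed with Treg-dominated Foxp3 cells had between 401 and 753 called genes under 13 of 17 alternatives. It had 124 (51 higher, 73 lower) with at least 2 Foxp3 UMIs per Foxp3 cell, 265 (116 and 149) with 1 cell per clonotype and class, 228 at 3000 UMIs per cell, where fewer cells keep a Foxp3 UMI, and 243 (106 and 137) with exactly 1 Foxp3 UMI. DESeq2 called 486 and edgeR without a filter on low counts 753. Without the replicate block, which here is the mouse, the counts were 401, 2 within mixed clonotypes, 0 within Treg-dominated clonotypes and 0 for the difference of contrasts. No count could be had from 1 mouse alone, which leaves no residual degrees of freedom.

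Within mixed clonotypes, against 7 calls, there were 44 without a filter, 62 with at least 2 Foxp3 UMIs, 0 with 1 cell per clonotype, 4 at 3000 UMIs, 13 without the largest clonotypes, 27 with the class set by the other cells of the clonotype, 4 with clonotypes defined by TRB and TRA, 3 with cells that share a TRA and 3 with exactly 1 Foxp3 UMI. Within Treg-dominated clonotypes, against 16 calls, the counts in the same order were 105 without a filter, 58 with at least 2 UMIs, 0 with 1 cell per clonotype, 27 at 3000 UMIs (6 higher, 21 lower), 26 with the class set by the other cells and 0 with exactly 1 UMI. There were also 10 without TRBV26 cells, 3 with thresholds of 15% and 75% and 5 with clonotypes of 5 or more cells. The difference of contrasts, with 0 calls, had 3 by DESeq2, 49 without a filter, 58 with at least 2 UMIs, 4 at 3000 UMIs, 9 without TRBV26 cells, 8 without the largest clonotypes, 7 with the class set by the other cells and 1, Itgae, without the highest doublet scores. The cause of these moves was not tested.

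Signs turned for Adgrg1 (-2.06), Spp1 (-3.79), Glp1r (-2.08) and Ube2c (-2.22) in the contrast of Foxp3 cells with at least 2 Foxp3 UMIs, for Ube2c (-2.20) and Gm26917 (-0.052) there at 3000 UMIs, for Ube2c (-0.45) with thresholds of 15% and 75%, and for Il4, at 5.48 without replicate 2 and -0.41 without replicate 1. Within mixed clonotypes Ube2c turned to -1.45 with at least 2 UMIs and to -2.01 at 3000 UMIs. Within Treg-dominated clonotypes at 3000 UMIs Ccl5 was at 0.20, Ube2c at -1.34, Ccna2 at -1.16, Cdc20 at -1.03, Plk1 at -0.74 and Cenpf at -0.93. Of these, only Ube2c was called in that setting. Of the named genes under all alternatives of the contrast of Foxp3 cells, 895 values counted as the same, 60 lost the call and 10 gained it. Another 39 moved with a mouse left out, where no test was made. A further 8 turned sign for a gene called in the main or the alternative fit. Values that turned sign with no call in either fit count as the same. So do values with a mouse left out that lie within the standard deviation of the mice.

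The mean over mice of the share of mixed Foxp3 cells with a shared TRA was 94.6%, and it was 50% with at least 2 Foxp3 UMIs, 92.5% with 1 cell per clonotype, 89.5% with the class set by the other cells, 100% with exactly 1 UMI, and 93.3% to 95.8% with a mouse left out. The share with an Ikzf2 UMI was 57.1%, and it was 83.3% with at least 2 UMIs, 35% at 3000 UMIs and 51.6% to 62.5% with a mouse left out. The median size of mixed clonotypes, 18.25 cells as a mean over mice, was 22 at 3000 UMIs, 19.75 without TRBV26 cells, 17.5 without the largest clonotypes, 11.5 with the class set by the other cells, 25.25 with thresholds of 15% and 75%, 17.75 without the highest doublet scores and 18 to 18.5 with a mouse left out. The doublet score setting removed 0 and 1 mixed and 16 and 16 Treg-dominated Foxp3 cells. Depth limits the class itself, since a cell with low Foxp3 can give 0 UMIs.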
